A study of Mus musculus with 10 samples.

Results

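The genes described here are those whose RNA was at or below 0.5 times its untreated level after 24 h with interferon gamma (IFN-γ), in each of 2 related mouse melanoma lines. They were chosen from these same measurements: an entry of the count table had to reach a mean of at least 5 CPM (the count scaled to the library's total) in the untreated cells of both lines, and its mean with IFN-γ had to be at most 0.5 times the untreated mean in both. Of 77175 entries in the table, 10228 reached 5 CPM in both lines, 148 of them (1.45%) were at or below 0.5 times in the OVA line, 133 (1.3%) in the WT line and 113 (1.1%) in both. From these 113, 48 entries were dropped by name (23 without a symbol, 20 named Gm, 2 ending in Rik, and Noct, Slc38a6 and Nopchap1), which left 65 genes. In the other direction, 198 of the same 10228 entries were at or above 2 times their untreated mean in both lines. That count leaves out genes that IFN-γ raised from below 5 CPM untreated.

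The libraries were bulk poly-A selected RNA-seq libraries in 4 groups. B16-F10-OVA cells (called OVA) carry a lentiviral vector, pLV[Exp]-Neo-EF1A>{ovalbumin}, in which the EF1A promoter drives ovalbumin, a model antigen, beside a neomycin resistance marker; they were given IFN-γ at 50 ng/ml for 24 h (3 libraries) or left untreated (2 libraries). B16-F10 cells (called WT), the melanoma line without that vector, were likewise given IFN-γ at 50 ng/ml for 24 h (3 libraries) or left untreated (2 libraries). Whether the OVA line is 1 clone or a pool was not given in the labels, nor whether the replicates are separate cultures, so a p-value here reflects the scatter among these libraries, and that scatter may be technical. The series was designed to compare how the lines react to the cytokine.

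IFN-γ binds a receptor whose JAK kinases pass the signal to the nucleus, where genes that carry a GAS element in their regulatory DNA are switched on. The best known outcome in tumour cells is induction, above all of antigen presentation. Of the members, 6 were assigned by hand to proteases, 12 to the matrix and its synthesis and 6 to adhesion. Another 12 were assigned to cytoskeleton and membrane traffic and 8 to gene regulation. Lipid and metabolic enzymes took 8, receptors, ligands and kinases 7, and 6 had no role given. The same roles were not counted among other entries, so these numbers do not show what sets the members apart. ADAM and matrix metalloproteases cut other surface proteins free or open the matrix, and pigment cells, which come from the neural crest, use proteases, matrix and adhesion receptors when they migrate.

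The library totals ran from 17728722 to 19642533 counts, so that the least abundant member in a library, Sned1, still had 25 counts. The treatment was visible in Irf1, a well-known IFN-γ target that encodes a transcription factor, which averaged 662 ± 18.0 CPM with IFN-γ and 10.4 ± 0.0678 CPM untreated in OVA cells, and 691 ± 23.0 CPM with IFN-γ and 10.8 ± 0.531 CPM untreated in WT cells (SD, n = 3 treated and 2 untreated). All 7 melanoma markers looked at (Tyr, Tyrp1, Dct, Mlana, Pmel, Sox10 and Mitf) were above 1 CPM, summing to 23256 CPM or more in every library. The T cell marker Cd3e, the leukocyte marker Ptprc, the epithelial markers Epcam, Krt5, Krt8 and Krt14 and the endothelial marker Kdr had no counts. Of the same lists, Lck, Cd68 and Cdh1 reached 1 CPM, and the 6 T cell markers summed to 3.32 to 4.07 CPM with IFN-γ and 1.598 to 1.90 CPM untreated in OVA libraries, and to 3.10 to 3.77 CPM with IFN-γ and 1.24 to 1.28 CPM untreated in WT libraries. The 6 macrophage markers summed to 3.27 to 3.56 CPM with IFN-γ and 2.17 to 2.98 CPM untreated in OVA libraries, and to 3.40 to 4.99 CPM with IFN-γ and 2.39 to 3.27 CPM untreated in WT libraries. In OVA libraries the 6 epithelial markers summed to 1.00 to 1.58 CPM with IFN-γ and 0.551 to 1.52 CPM untreated. In WT libraries they summed to 0.904 to 1.27 CPM with IFN-γ and 0.902 to 1.34 CPM untreated. The 4 endothelial markers summed to 0.563 to 1.07 CPM with IFN-γ and 0.379 to 0.606 CPM untreated in OVA libraries. Their WT sums were 0.310 to 0.509 CPM with IFN-γ and 0.226 to 0.501 CPM untreated. The part of such cells in the results was not tested. The 48 dropped entries took 1.51% to 1.54% of the counts with IFN-γ and 4.06% to 4.10% untreated in OVA libraries, and 1.55% to 1.58% with IFN-γ and 4.15% to 4.18% untreated in WT libraries. The 65 members took 0.110% to 0.115% and 0.292% to 0.301% of the counts in treated and untreated OVA libraries, and 0.116% to 0.119% and 0.293% to 0.295% in treated and untreated WT libraries.

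Promoter sequences are shown for Abca12, Tenm4 and Igsf3, which are among the genes of lowest ratio, and for 2 members whose windows carry motif letters named again with the motif counts. The sequences are RefSeq's, on GRCm38.p6, and each is the 250 bases before an annotated start, read 5′ to 3′ on the gene's strand. The Abca12 window is chr1:71414911-71415160 (minus strand), that of Tenm4 chr7:96170994-96171243 (plus), that of Igsf3 chr3:101376875-101377124 (plus), that of Adam19 chr11:46055734-46055983 (plus) and that of St6galnac3 chr3:153725134-153725383 (minus). Each ends at an annotated transcript start, just before that transcript's first exon. The Adam19 window lies downstream of another annotated start of the gene, and Tenm4 has a further start downstream of its window. Capitals mark the letters of a motif for AP-1, TEAD, the E-box, GAS or the ISRE core, on either strand. No window was held for Adam12.
Abca12: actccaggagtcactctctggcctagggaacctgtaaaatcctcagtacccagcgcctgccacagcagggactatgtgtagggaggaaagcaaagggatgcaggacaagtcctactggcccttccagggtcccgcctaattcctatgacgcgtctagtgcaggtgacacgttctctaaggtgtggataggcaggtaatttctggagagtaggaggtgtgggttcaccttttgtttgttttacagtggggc
Tenm4: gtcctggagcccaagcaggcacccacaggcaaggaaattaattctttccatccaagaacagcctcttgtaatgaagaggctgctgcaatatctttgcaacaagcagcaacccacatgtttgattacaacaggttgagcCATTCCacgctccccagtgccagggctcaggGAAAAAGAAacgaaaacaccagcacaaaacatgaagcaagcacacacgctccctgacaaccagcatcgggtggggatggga
Igsf3: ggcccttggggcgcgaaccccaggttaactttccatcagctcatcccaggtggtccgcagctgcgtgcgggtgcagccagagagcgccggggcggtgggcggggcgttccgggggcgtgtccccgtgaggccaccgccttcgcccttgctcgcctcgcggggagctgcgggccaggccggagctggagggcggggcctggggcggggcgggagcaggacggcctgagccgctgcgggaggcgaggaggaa
Adam19: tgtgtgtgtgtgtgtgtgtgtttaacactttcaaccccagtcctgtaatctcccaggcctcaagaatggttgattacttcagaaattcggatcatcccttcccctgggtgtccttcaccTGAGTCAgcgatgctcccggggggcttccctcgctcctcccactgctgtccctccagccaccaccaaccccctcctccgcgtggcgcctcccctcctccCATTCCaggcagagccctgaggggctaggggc
St6galnac3: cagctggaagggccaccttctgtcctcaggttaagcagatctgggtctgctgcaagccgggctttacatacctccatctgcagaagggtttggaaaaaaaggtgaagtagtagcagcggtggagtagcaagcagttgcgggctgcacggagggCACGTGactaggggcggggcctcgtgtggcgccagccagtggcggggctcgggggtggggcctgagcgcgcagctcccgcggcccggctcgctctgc
The Abca12 and Igsf3 windows hold none of the 5 motifs. That of Tenm4 holds a TEAD motif and the ISRE core, that of Adam19 an AP-1 and a TEAD motif, and that of St6galnac3 an E-box.

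Across the 65 genes the mean with IFN-γ was 0.211 to 0.492 times the untreated mean in OVA cells (median 0.410) and 0.217 to 0.499 times in WT cells (median 0.416). Over all 10228 entries with at least 5 CPM the median ratio was 1.01 in OVA cells and 0.997 in WT cells. These ratios chose the genes and carry no test here. All 65 were called lower by edgeR's quasi-likelihood test in both lines, against 22.9% of all 15526 tested genes in OVA cells (48.8% in either direction) and 19.7% in WT cells (44.2% in either direction), and nothing is read from that count. In both lines every treated library lay below every untreated one for all 65 genes, as it did for 36.3% of the 10228 entries in each line. The ratio was at or below 0.25 in both lines for 3 genes (Abca12, Adam12 and Tenm4), and at or below 1/3 in both for 13. The members nearest the limit were Stard9 (larger of its 2 ratios 0.493), Wipf3 (0.493) and Chsy1 (0.499), and the entries just outside were Megf6 (0.501), Nek10 (0.502) and Scn1a (0.503). Scaling by TMM factors in place of totals left 62 genes and dropped the 3 nearest the limit.

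**Figure D1:**
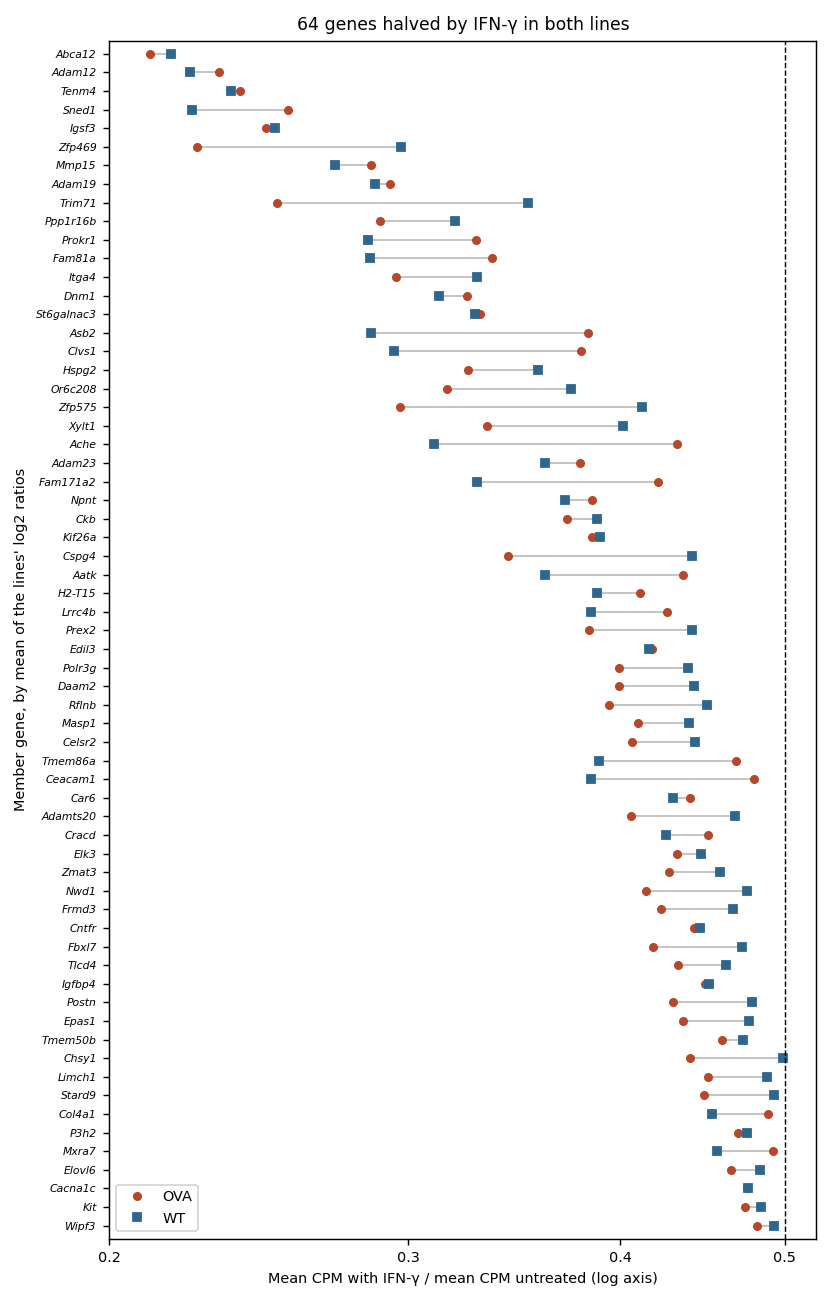
Ratio of the mean CPM with IFN-γ to the mean CPM untreated (x, log axis) for 64 of the 65 genes (rows, ordered by the mean of the log2 ratios), with OVA as circles, WT as squares and the limit of 0.5 dashed. The ratios run from 0.211 to 0.492 in OVA cells and from 0.217 to 0.499 in WT cells.

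The rule bounds the ratios from above and the untreated levels only from below. Untreated means ran from 5.06 to 287 CPM in OVA cells and from 5.77 to 346 CPM in WT cells, with 9 genes at 100 CPM or more in both lines and 19 under 10 CPM in at least 1 line. The most abundant by CPM were Hspg2, Itga4, Ckb, Igfbp4, Tlcd4 and Zmat3. Per kilobase of the longest transcript the order changed: Ckb, the brain-type creatine kinase, averaged 24.4 CPM per kb with IFN-γ and 65.7 CPM per kb untreated in OVA cells, and 28.1 and 72.4 CPM per kb in treated and untreated WT cells. Hspg2, whose longest transcript has 14187 nucleotides, averaged 6.11 and 18.8 CPM per kb in treated and untreated OVA cells, and 8.73 and 24.4 CPM per kb in treated and untreated WT cells. The median of the longest transcript (GENCODE M21) was 5241 nucleotides over the 65 genes. It was 3543 over the 10056 entries of at least 5 CPM that had a length, and 48 of 65 members (73.8%) lay above that second median. Unlike the members, those entries were not filtered by name, so the 2 sets differ in more than their ratios. The members' median SD was 6.93% of the mean in treated and 3.58% in untreated OVA cells, and 6.30% in treated and 2.51% in untreated WT cells. The highest member SD was 26.3% in treated and 29.0% in untreated OVA cells, and 28.5% in treated and 18.3% in untreated WT cells. Untreated SDs rest on 2 libraries per line.

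Of the 6 genes of surface and matrix proteases, Adam12 stood lowest relative to untreated cells. ADAM12 is a membrane-bound metalloprotease-disintegrin that sheds growth factor precursors. It had 13.8, 16 and 13.1 CPM with IFN-γ and 60.1 and 63.2 CPM untreated in OVA cells, and 13.1, 14.5 and 12.6 CPM with IFN-γ and 58.4 and 61.8 CPM untreated in WT cells. The treated libraries of both lines share 1 narrow band, and the untreated libraries another, with no overlap in either line, as for every member. Adam19, which sheds neuregulins, had 6.77, 4.90 and 4.12 CPM with IFN-γ and 19.1 and 16.9 CPM untreated in OVA cells, and 5.80, 6.01 and 4.75 CPM with IFN-γ and 18.8 and 19.7 CPM untreated in WT cells. Its first treated OVA library was the highest of the 6 treated ones. Adam23, a member of the family that lacks protease activity and binds other surface proteins, averaged 6.42 ± 0.331 and 16.9 ± 0.414 CPM in treated and untreated OVA cells, and 5.71 ± 0.638 and 15.8 ± 0.587 CPM in treated and untreated WT cells. Mmp15, a membrane-type matrix metalloprotease, was at 0.285 times its untreated mean in OVA cells and 0.272 times in WT cells. Adamts20, the secreted protease mutated in belted mice, whose pigment cells fail to fill the trunk, averaged 10.6 ± 0.494 and 26.2 ± 3.52 CPM in treated and untreated OVA cells, and 14.5 ± 1.08 and 30.9 ± 0.770 CPM in treated and untreated WT cells. Masp1, a serine protease of the lectin pathway of complement, was the last of the 6.

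The 12 genes of the matrix and its synthesis held Hspg2, first of the members by untreated CPM averaged over the lines, which encodes perlecan, the large heparan sulfate proteoglycan of basement membranes. It had 89.9, 90.3 and 80.1 CPM with IFN-γ and 274 and 259 CPM untreated in OVA cells, and 134, 121 and 116 CPM with IFN-γ and 341 and 350 CPM untreated in WT cells. Each treated OVA library lay below each treated WT library, and the untreated libraries stood in the same order. Zfp469, a zinc finger protein whose human counterpart is mutated in brittle cornea syndrome, a collagen disorder, had 8.35, 7.65 and 8.91 CPM with IFN-γ and 38.1 and 35.6 CPM untreated in OVA cells. In WT cells Zfp469 had 13.7, 16 and 15.2 CPM with IFN-γ and 48.6 and 52.0 CPM untreated, above OVA in each condition. Sned1, a matrix glycoprotein, averaged 1.72 ± 0.269 and 6.75 ± 0.0346 CPM in treated and untreated OVA cells, and 1.68 ± 0.250 and 7.51 ± 0.151 CPM in treated and untreated WT cells. Col4a1, a chain of basement membrane collagen IV, averaged 17.2 ± 0.333 and 35.2 ± 0.424 CPM in treated and untreated OVA cells, and 19.4 ± 0.733 and 42.8 ± 0.305 CPM in treated and untreated WT cells.

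Xylt1 puts the first sugar of a glycosaminoglycan chain onto a core protein, and Chsy1 extends chondroitin chains. Xylt1 averaged 8.51 ± 0.310 and 25.5 ± 0.809 CPM in treated and untreated OVA cells, and 10.5 ± 0.569 and 26.3 ± 0.250 CPM in treated and untreated WT cells. The core proteins among the members were perlecan itself and Cspg4, the chondroitin sulfate proteoglycan NG2, which averaged 2.25 ± 0.492 and 6.54 ± 1.89 CPM in treated and untreated OVA cells, and 2.62 ± 0.483 and 5.94 ± 0.181 CPM in treated and untreated WT cells. P3h2, which hydroxylates prolines of collagen, the integrin ligands Npnt and Edil3, the matricellular Postn and the little-studied Mxra7 completed the group, with ratios of 0.385, 0.418, 0.430, 0.469 and 0.492 in OVA cells for Npnt, Edil3, Postn, P3h2 and Mxra7. Over the 12 genes the median ratio was 0.401 in OVA cells and 0.428 in WT cells. Markers of fibroblasts moved too: their summed level was 9.41 to 10.5 CPM with IFN-γ and 15.0 to 17.1 CPM untreated in OVA libraries, and 12.5 to 13.7 CPM with IFN-γ and 19.3 to 20.5 CPM untreated in WT libraries. That sum came from 4 of the 6 markers, Pdgfrb, Col1a1, Col1a2 and Pdgfra, and most of all from Pdgfrb, at 4.90 and 9.46 CPM in treated and untreated OVA cells and 8.26 and 12.9 CPM in treated and untreated WT cells. Col1a2 did not share this course in OVA cells, at 3.22 CPM treated and 3.19 CPM untreated, and its WT libraries overlapped, at 1.81 to 2.23 CPM treated and 1.92 and 3.39 CPM untreated. Dcn had at most 0.113 CPM and Lum at most 0.0564 CPM in any library. Their part in the result was not tested. In bulk samples fewer cells of a type and less RNA per cell cannot be told apart.

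Among the 6 adhesion and recognition genes, Tenm4 and Igsf3 stood lowest. TENM4 is a teneurin, a large surface protein that binds latrophilins on neighbouring cells. It had 5.64, 6.64 and 5.79 CPM with IFN-γ and 26.0 and 24.4 CPM untreated in OVA cells, and 6.44, 7.08 and 5.99 CPM with IFN-γ and 26.8 and 28.3 CPM untreated in WT cells. The lines overlap in the treated libraries, and in neither line do treated and untreated overlap, as for every member. Igsf3, an immunoglobulin superfamily protein, had 18.6, 17.1 and 17.0 CPM with IFN-γ and 71.2 and 71.0 CPM untreated in OVA cells, and 20.2, 18.1 and 18.8 CPM with IFN-γ and 76.2 and 75.8 CPM untreated in WT cells. Itga4 encodes the α4 integrin chain, which pairs with β1 to bind VCAM-1 and fibronectin. It had 87.2, 87.7 and 79.2 CPM with IFN-γ and 293 and 281 CPM untreated in OVA cells, and 90.9, 92.5 and 86.2 CPM with IFN-γ and 271 and 275 CPM untreated in WT cells. Its partner Itgb1, no member, averaged 533 ± 2.47 and 652 ± 5.43 CPM in treated and untreated OVA cells, and 550 ± 8.57 and 677 ± 3.61 CPM in treated and untreated WT cells. The rule chose Itga4 by its ratios, and Itgb1 did not meet the rule. That α4 RNA had the smaller treated to untreated ratio of the pair is therefore no result here. The remaining adhesion genes were Celsr2, a seven-pass cadherin of planar polarity, Lrrc4b, a postsynaptic adhesion protein, and Ceacam1, a homophilic adhesion receptor, with ratios of 0.407, 0.426 and 0.480 in OVA cells and 0.443, 0.385 and 0.384 in WT cells.

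**Figure D2:**
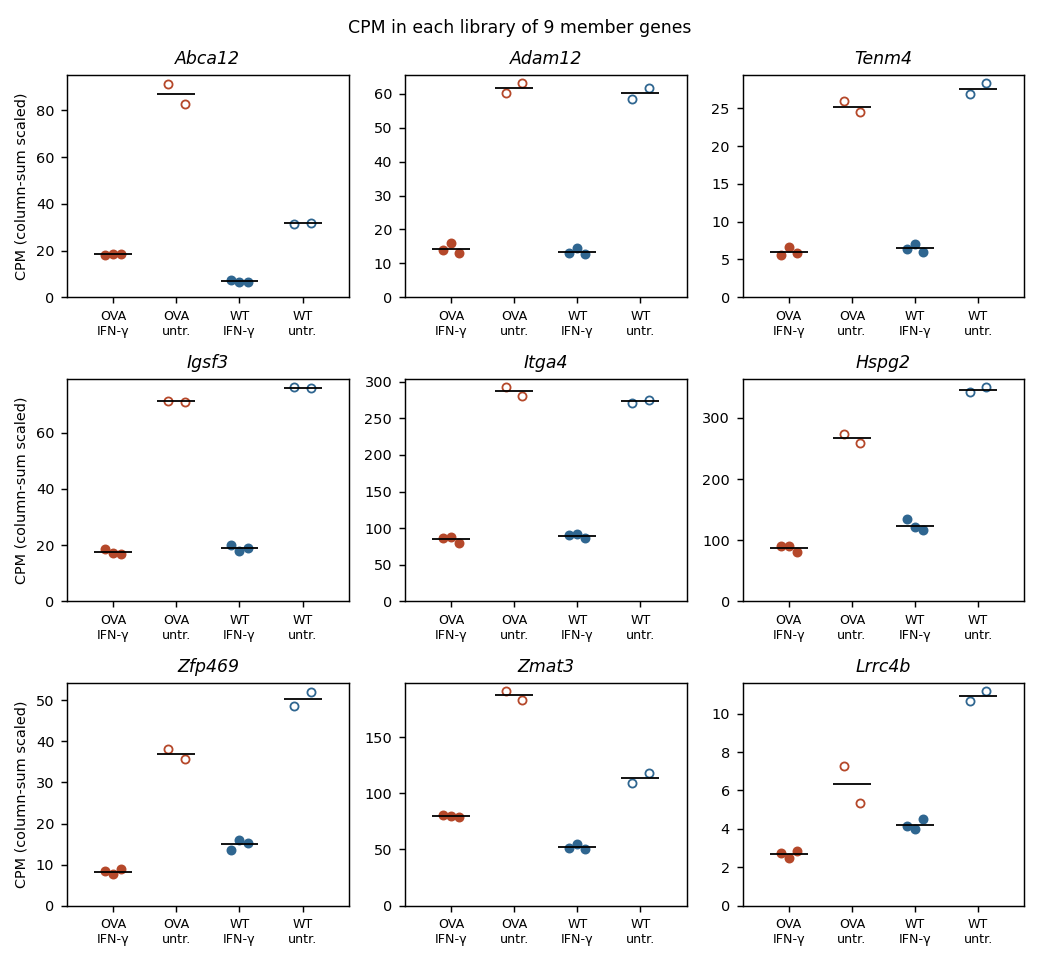
CPM in each library (points) for 9 of the genes, with group means as bars, OVA in red and WT in blue, IFN-γ filled and untreated open. In every panel the treated libraries lie below the untreated ones of the same line, and for Abca12 and Zmat3 the OVA libraries lie above the WT libraries of the same condition.

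The 7 receptors, ligands and kinases were led in level by Igfbp4 and Cntfr. Cntfr is the ligand-binding receptor of ciliary neurotrophic factor. Cntfr had 57.1, 54.0 and 56.2 CPM with IFN-γ and 126 and 126 CPM untreated in OVA cells, and 61.8, 57.9 and 58.4 CPM with IFN-γ and 136 and 131 CPM untreated in WT cells. Kit, the receptor of stem cell factor on which pigment cell precursors depend, averaged 4.58 ± 0.997 and 9.67 ± 0.0392 CPM in treated and untreated OVA cells, and 4.52 ± 0.333 and 9.33 ± 0.188 CPM in treated and untreated WT cells. Igfbp4, a secreted binder of insulin-like growth factors, averaged 85.1 ± 2.16 and 190 ± 5.11 CPM in treated and untreated OVA cells, and 81.1 ± 3.17 and 180 ± 3.20 CPM in treated and untreated WT cells. Prokr1, a prokineticin receptor, was lowest of the group relative to untreated cells, at 0.329 times in OVA cells and 0.284 times in WT cells. The kinase gene Aatk and the calcium channel gene Cacna1c also belonged to it.

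The 12 genes of the cytoskeleton and membrane traffic had a median ratio of 0.397 in OVA cells and 0.442 in WT cells. Ppp1r16b, a regulatory subunit of protein phosphatase 1, and Dnm1, a dynamin that pinches off endocytic vesicles, had the lowest ratios in OVA cells, at 0.289 and 0.325, and Clvs1, a protein of clathrin-coated vesicles, in WT cells, at 0.294. Dnm1 had 5.36, 6.75 and 5.90 CPM with IFN-γ and 20.4 and 16.6 CPM untreated in OVA cells, and 6.59, 7.74 and 6.92 CPM with IFN-γ and 22.3 and 23.0 CPM untreated in WT cells. Limch1, a binder of non-muscle myosin, was the most abundant by CPM, with 57.5, 57.8 and 56.1 CPM treated and 125 and 129 CPM untreated in OVA cells, and 54.0, 52.2 and 54.4 CPM treated and 109 and 110 CPM untreated in WT cells. Prex2, an exchange factor that loads Rac with GTP and a gene often mutated in melanoma, averaged 22.5 ± 2.13 and 58.6 ± 2.60 CPM in treated and untreated OVA cells, and 25.6 ± 1.16 and 58.1 ± 3.29 CPM in treated and untreated WT cells. The formin gene Daam2, the actin regulators Cracd and Wipf3, the filamin binder Rflnb, the FERM domain gene Frmd3, the kinesin family genes Kif26a and Stard9, and Clvs1 lay between 0.379 and 0.481 in OVA cells.

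Among the 8 genes of lipid and other metabolism stood Abca12, the member with the lowest ratio in both lines, whose product moves lipids into the lamellar granules of keratinocytes. Abca12 had 18.2, 18.3 and 18.6 CPM with IFN-γ and 91.1 and 82.8 CPM untreated in OVA cells, and 7.34, 6.57 and 6.71 CPM with IFN-γ and 31.3 and 31.9 CPM untreated in WT cells. The levels of the lines do not overlap in either condition, while the ratios were close, at 0.211 in OVA cells and 0.217 in WT cells. Ckb had 70.7, 70.1 and 67.3 CPM with IFN-γ and 184 and 188 CPM untreated in OVA cells, and 77.9, 80.0 and 81.2 CPM with IFN-γ and 212 and 199 CPM untreated in WT cells. Elovl6, an enzyme that lengthens saturated and monounsaturated fatty acids, averaged 52.3 ± 2.42 and 112 ± 2.01 CPM in treated and untreated OVA cells, and 56.4 ± 1.33 and 117 ± 2.26 CPM in treated and untreated WT cells. Car6, a secreted carbonic anhydrase, averaged 35.6 ± 1.88 and 81.0 ± 2.97 CPM in treated and untreated OVA cells, and 31.3 ± 1.52 and 72.7 ± 2.36 CPM in treated and untreated WT cells. St6galnac3, a sialyltransferase, was at 0.331 times untreated in OVA cells and 0.328 times in WT cells. Tmem86a, an enzyme that degrades lysoplasmalogens, Ache, acetylcholinesterase, and Tlcd4 had ratios of 0.468, 0.432 and 0.433 in OVA cells and 0.388, 0.311 and 0.462 in WT cells.

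Of the 8 genes of gene regulation, Trim71, a stem cell RNA-binding protein and target of the let-7 miRNAs, was lowest in OVA cells, at 0.251 times untreated there and 0.353 times in WT cells. Asb2, part of a ubiquitin ligase, was lowest in WT cells, at 0.383 times untreated in OVA cells and 0.285 times in WT cells. Elk3, an ETS family transcription factor, averaged 19.4 ± 0.876 and 44.8 ± 1.24 CPM in treated and untreated OVA cells, and 20.03 ± 1.72 and 44.9 ± 0.388 CPM in treated and untreated WT cells. Epas1, the hypoxia-inducible factor HIF-2α, averaged 7.37 ± 0.971 and 16.9 ± 2.02 CPM in treated and untreated OVA cells, and 8.51 ± 0.494 and 17.9 ± 0.566 CPM in treated and untreated WT cells. Zmat3, an RNA-binding protein and p53 target, had 80.6, 80.2 and 79.2 CPM with IFN-γ and 191 and 183 CPM untreated in OVA cells, and 51.2, 54.9 and 50.1 CPM with IFN-γ and 109 and 118 CPM untreated in WT cells. The OVA libraries were above the WT libraries in each condition. Polr3g, a subunit of RNA polymerase III, the ubiquitin ligase part Fbxl7, and the zinc finger gene Zfp575 were the others. For 6 members no role is given: Fam81a, Fam171a2, Nwd1, Tmem50b, and the uncertain entries Or6c208 (an olfactory receptor gene) and H2-T15 (a class Ib MHC gene), whose reads may be shared with near-identical copies.

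Several members overlap another gene on the opposite strand, and no source used here gives the strand setting of the counting, which leaves reads of the overlapping stretches uncertain. Clvs1 overlaps Asph, which averaged 67.2 CPM with IFN-γ and 93.2 CPM untreated in OVA cells, and 73.2 CPM with IFN-γ and 89.2 CPM untreated in WT cells, well above Clvs1 itself at 4.85 and 12.8 CPM in treated and untreated OVA cells. Sned1 overlaps Mterf4, which averaged 12.9 and 9.45 CPM in treated and untreated OVA cells and 11.7 and 7.95 CPM in treated and untreated WT cells. Col4a1 overlaps its neighbour Col4a2, Zfp575 overlaps Ethe1 and Itga4 overlaps Cerkl, and Cerkl had at most 4.32 CPM on average in any group.

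The rule did not use the difference between the lines, so that comparison was tested. It did ask for at least 5 CPM untreated in both lines, which leaves out genes near absence in 1 line. The share over entries that meet this limit is therefore given too. In untreated cells 11 of the 65 genes differed between OVA and WT (5 higher and 6 lower in OVA), against 5.53% of all genes tested (2.98% higher and 2.55% lower) and 7.48% of the entries of at least 5 CPM (edgeR quasi-likelihood test, adjusted p under 0.05 over 15526 genes). Abca12 was higher in OVA by 1.46 log2 units (SE 0.057, adjusted p = 1.09e-10) and Zmat3 by 0.72 (SE 0.045, adjusted p = 4.09e-08). Npnt and Limch1 were higher by 0.51 and 0.21 log2 units. Zfp469 was lower in OVA by a log2 difference of -0.44 (SE 0.067, adjusted p = 5.89e-04) and Hspg2 by -0.37 (SE 0.055, adjusted p = 5.29e-04). Lrrc4b, Asb2, Col4a1 and Celsr2 were lower, with log2 differences of -0.79, -0.49, -0.28 and -0.18. Of these 11 calls, those of Abca12, Zmat3, Zfp469 and Hspg2 were kept under all 16 alternative fits, and the other 7 were each lost under at least 1. Each untreated library mattered. Without the second OVA library 3 genes were higher and 2 lower in OVA, as the calls of Lrrc4b (adjusted p = 0.0642 in edgeR), Limch1 (adjusted p = 0.0658), Asb2, Col4a1, Celsr2 and Npnt were lost. Without the first WT library 3 were higher and 3 lower, without the second WT library 3 and 5, and without the first OVA library 3 and 7.

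With IFN-γ, 16 of the 65 differed between the lines (5 higher and 11 lower in OVA), against 14.4% of all genes tested (6.36% higher and 7.99% lower) and 19.1% of the entries of at least 5 CPM. Abca12 was again higher in OVA, by 1.39 log2 units (SE 0.076, adjusted p = 2.87e-09), and Zmat3 by 0.60 (SE 0.043, adjusted p = 6.82e-08). Npnt and Fam81a were higher by 0.53 and 0.37. The lower genes were led by Zfp469, with a log2 difference of -0.87 (SE 0.084, adjusted p = 2.62e-06), Lrrc4b with -0.66 (SE 0.15, adjusted p = 0.00655) and Hspg2 with -0.54 (SE 0.052, adjusted p = 2.95e-06). The protease gene Adamts20 (-0.46), the kinesin family gene Stard9 (-0.36), Celsr2 (-0.33), the chain-starting enzyme Xylt1 (-0.33) and Ckb (-0.22) were also lower in OVA. These 8 and the first 2 higher genes kept their calls under all 16 alternatives. Prex2, Col4a1 and Elovl6 were lower by smaller amounts, with log2 differences of -0.21, -0.20 and -0.13, and those calls, like those of Npnt and Fam81a, were each lost under at least 2 alternatives, with edgeR adjusted p-values up to 0.172. Without the second treated library of OVA 2 genes were higher and 8 lower, and without the second treated library of WT 2 were higher and 9 lower. In all, 18 members were called between the lines in at least 1 condition.

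**Figure D3:**
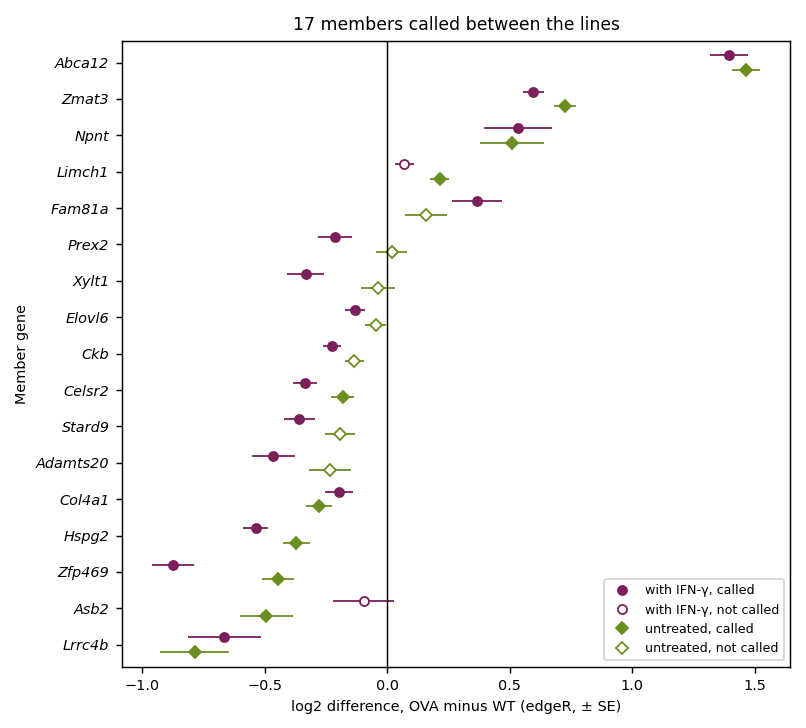
log2 difference between the lines, OVA minus WT, with SE bars (x), for 17 of the 18 members called in at least 1 condition (rows), with IFN-γ as circles and untreated as diamonds, filled where the adjusted p was under 0.05. Abca12 stands apart at 1.39 with IFN-γ and 1.46 untreated, and Zfp469 lies at -0.87 with IFN-γ and -0.44 untreated.

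Adam12, Tenm4 and Igsf3, 3 of the genes of lowest ratio, were not called between the lines. Adam12 had log2 differences of 0.069 with IFN-γ (SE 0.081, adjusted p = 0.633) and 0.041 untreated (SE 0.063, adjusted p = 0.794). Tenm4 had -0.13 (SE 0.10, adjusted p = 0.441) and -0.12 (SE 0.080, adjusted p = 0.445), and Igsf3 -0.14 (SE 0.060, adjusted p = 0.146) and -0.090 (SE 0.049, adjusted p = 0.351), each with IFN-γ and untreated in that order. These edgeR values do not show that the lines were alike.

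The difference between the 2 lines' responses was tested as an interaction, OVA minus WT. The rule bears on it, since a gene had to be at or below 0.5 times in both lines. No member was called (0 of 65, against 0.341% of all genes tested, 0.0773% higher and 0.264% lower, and 0.42% of the entries of at least 5 CPM) by edgeR, and 0 by DESeq2. At an unadjusted p under 0.05 there were 11 members by edgeR (16.9%, against 10.7% of all genes) and 3 by DESeq2 (4.62%, against 5.17% of all genes). The members' differences ran from -0.52 (Trim71) to 0.44 (Ache) log2 units, with a median of -0.062 against -0.015 over all tested genes. With edgeR's TMM scaling the difference was below 0 for 44 of 65 members (67.7%) and for 54.2% of all tested genes. With CPM scaled to totals the ratio was smaller in OVA cells for 40 of 65 members (61.5%) and for 45.7% of the entries of at least 5 CPM. Zfp469 had the lowest adjusted p, with a difference of -0.43 log2 units (SE 0.11, adjusted p = 0.132), and without the filter on low counts it was called (adjusted p = 0.0231). Itga4 differed by -0.19 (SE 0.059, adjusted p = 0.231). For Abca12, with its large difference in level, the 2 ratios of 0.211 and 0.217 lie side by side. Across the 65 genes the log2 ratios of the lines had a Spearman rank correlation of 0.770. The rule chose the genes by these same ratios, and the genes share their libraries. The value is therefore a description and tests nothing.

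Other genes of the families that the members belong to were counted from lists. The counts are of genes that passed edgeR's test for IFN-γ against untreated, against 25.9% of all tested genes rising and 22.9% falling in OVA cells, and 24.5% rising and 19.7% falling in WT cells. The median log2 change over all tested genes was 0.0018 in OVA cells and 0.011 in WT cells. The lists were chosen with earlier results of these data known, so the counts describe the lists and test nothing about them.

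Besides Adam12, Adam19, Adam23 and Adamts20, 19 ADAM and ADAMTS genes were tested. Of these, 10 fell and 5 rose in OVA cells, and 8 fell and 3 rose in WT cells, with median log2 changes of -0.33 and -0.12. Adamts1, which cleaves the proteoglycan versican, fell to 104 ± 2.54 CPM with IFN-γ in OVA cells, against 185 ± 3.82 CPM untreated, and to 97.6 ± 3.67 CPM in WT cells, against 188 ± 1.64 CPM untreated. Adam17, the main sheddase of tumour necrosis factor, fell by 0.20 log2 units in OVA cells and 0.12 in WT cells, and Adam10, which starts Notch cleavage, was not called (log2 changes -0.019 and 0.00035). In the opposite direction, Adamts6 rose by 3.62 log2 units in OVA cells (SE 0.20) and 2.53 in WT cells (SE 0.19), and Adamts14, which trims procollagen, by 0.89 and 0.67. The family thus moved both ways.

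Of the teneurins and latrophilins other than Tenm4, 3 were tested. The latrophilin genes Adgrl1 and Adgrl2, which encode receptors of teneurins, fell by 0.46 and 0.48 log2 units in OVA cells and by 0.54 and 0.29 in WT cells. Of 10 ABCA transporter genes other than Abca12, 3 rose and 3 fell in OVA cells and 2 rose and 3 fell in WT cells. Abca8b rose by 1.42 and 1.30 log2 units, and Abca2 fell by 0.65 and 0.55, in OVA and WT cells. Of 19 immunoglobulin superfamily adhesion genes other than Igsf3, 8 fell and 6 rose in each line. Ncam1 fell by 0.92 and 0.73 and L1cam, another neural adhesion molecule, by 0.87 and 0.82, while Igsf8 rose by 0.80 and 0.76, in OVA and WT cells.

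Of 33 extracellular matrix genes that are no members, 15 fell and 6 rose in OVA cells, and 12 fell and 7 rose in WT cells. Col4a2, which lies head to head with Col4a1 and encodes the other chain of the same collagen trimer, fell to 17.0 ± 1.13 CPM in OVA cells, against 31.7 ± 0.614 CPM untreated, and to 18.6 ± 0.915 CPM in WT cells, against 35.4 ± 1.68 CPM untreated. Col5a1 fell by 0.84 log2 units in OVA cells and 0.93 in WT cells, and Lama5, a laminin chain of basement membranes, by 0.83 and 0.93. Fibronectin, Fn1, a ligand of the α4 integrin, instead rose to 203 ± 3.47 CPM in OVA cells, against 103 ± 3.98 CPM untreated, and to 246 ± 17.0 CPM in WT cells, against 135 ± 2.40 CPM untreated. Thbs1, thrombospondin, rose to 94.7 ± 1.79 CPM in OVA cells, against 8.06 ± 0.173 CPM untreated, and to 121 ± 3.97 CPM in WT cells, against 5.75 ± 0.966 CPM untreated. Matrix genes thus moved both ways.

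Of 18 integrin genes other than Itga4, 8 fell in each line, and 4 rose in OVA cells and 2 in WT cells. Itga1, a collagen-binding chain, fell by 1.02 log2 units in OVA cells and 0.81 in WT cells. Of 17 receptor tyrosine kinase genes other than Kit, 6 fell and 4 rose in OVA cells and 8 fell and 4 rose in WT cells. Pdgfrb fell by 0.94 and 0.61 log2 units, and Axl rose by 1.49 and 1.47, in OVA and WT cells.

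The lists with no member followed no single course. Of 36 mitosis genes, 31 fell and 0 rose in OVA cells and 21 fell and 3 rose in WT cells, and of 42 DNA replication genes, 31 fell and 1 rose in OVA cells and 33 fell and 2 rose in WT cells. Their median log2 changes were -0.34 and -0.15 for mitosis and -0.26 and -0.29 for replication in OVA and WT cells. Of 20 transcription factors of the neural crest and pigment lineage, 13 rose and 3 fell in OVA cells and 11 rose and 3 fell in WT cells. Mitf, the master regulator of pigment cells, rose to 825 ± 7.98 CPM in OVA cells, against 591 ± 5.78 CPM untreated, and to 823 ± 20.2 CPM in WT cells, against 577 ± 13.4 CPM untreated. Of 24 YAP-TEAD targets, 13 fell and 7 rose in OVA cells and 10 fell and 6 rose in WT cells. Of 35 amino acid and nutrient transporters, 18 fell and 4 rose in OVA cells and 20 fell and 3 rose in WT cells. For 49 axon guidance genes there were 18 falls and 10 rises in each line.

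**Figure D4:**
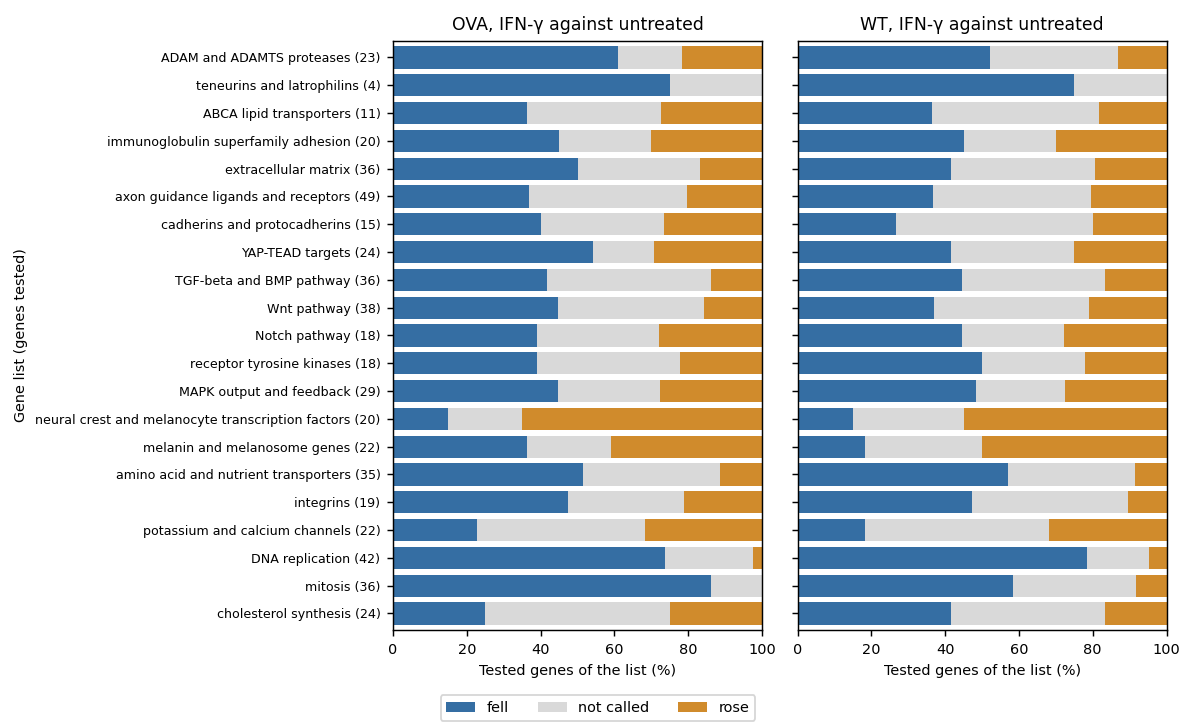
Share of the tested genes of each list (rows, number tested in parentheses) that fell, were not called or rose with IFN-γ, in OVA (left) and WT cells (right), by edgeR at an adjusted p under 0.05. Members, which the rule chose for their fall, are included: of 23 ADAM and ADAMTS genes, 14 fell in OVA cells and 12 in WT cells. Without the 4 members, 10 of 19 fell in OVA cells and 8 of 19 in WT cells. Of all tested genes, 22.9% fell in OVA cells and 19.7% in WT cells.

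The promoter windows were searched for 10 motifs on both strands. Of the 65 members, 50 had at least 1 window in the RefSeq table, 73 windows in all. Their median GC content was 63.6%, against 60.4% over the 10197 windows of entries with at least 5 CPM and 52.4% over all 32851. The GAS letters TTCNNNGAA were in 4 member windows (5.48%), those of Aatk, Cacna1c, Cracd and Fbxl7, against 5.57% of the windows of entries with at least 5 CPM and 7.02% of all. The ISRE core GAAANNGAA was also in 4 (5.48%, against 5.63% and 7.13%), those of Asb2, Postn, Tlcd4 and the Tenm4 window printed above. The AP-1 letters TGANTCA were in 1, that of Adam19 (1.37%, against 3.84% and 6.75%), and the TEAD letters GGAATG in 4 (5.48%, against 10.2% and 12.6%). The E-box CACGTG, which MITF and MYC can bind, was in 9 (12.3%, against 8.68% and 6.02%), among them those of St6galnac3, Chsy1, Tlcd4 and 1 of the Adam19 windows. The CCAAT letters were in 15 (20.5%, against 35.7% and 33.8%) and the GC box GGGCGG in 38 (52.1%, against 60.0% and 32.7%). The CRE TGACGTCA was in 2, overlapping windows of Daam2 (2.74%, against 2.67% and 1.55%), the SOX core ACAATGG in 2 (2.74%, against 1.56% and 3.02%) and the E2F letters TTTCGCGC in 0 (against 0.559% and 0.256%). The letters of one motif can overlap another's and windows of 1 gene can overlap, a match is not a binding site, and the starts used in these cells were not measured.

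**Figure D5:**
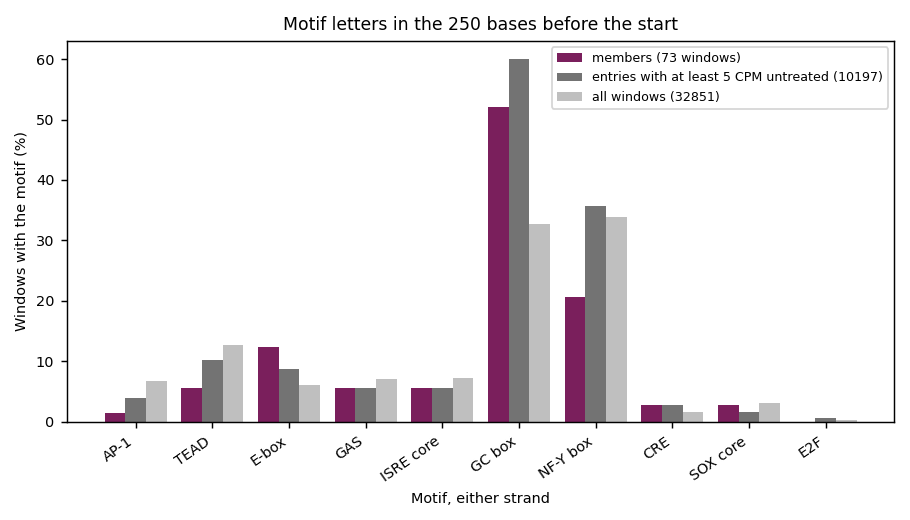
Share of the windows of 250 bases before an annotated start that hold each motif's letters on either strand (y, percent), for the members' 73 windows, the 10197 windows of entries with at least 5 CPM untreated and all 32851 windows. The members' bars are 12.3% for the E-box and 5.48% for GAS, beside 8.68% and 5.57% for entries with at least 5 CPM.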

How the data were processed

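The deposited table holds raw counts per Ensembl gene for the 10 libraries. HISAT2 2.0.5, featureCounts 1.6.0 and the build GRCm39 are named per the submitters' processing notes, with no strand setting, annotation release or handling of multi-mapped reads given in the sources used here. CPM used column totals. Under R 4.3.3, edgeR 4.0.16 fitted 4 group means over all 10 libraries after filterByExpr and TMM scaling, and contrasts were tested by its two-sided quasi-likelihood test, with Benjamini-Hochberg adjustment over 15526 genes at 0.05. Alternatives were DESeq2 1.42.0, other size factors, other filters, a replicate block, only the groups compared, other limits for choosing members and each library left out in turn. The pipeline was tested on simulated data. Replicates of a group differed by more than counting noise (chi-square per degree of freedom 2.09 to 3.75). The members and gene lists were chosen with earlier results of these data known. Named genes were those of lowest ratio, highest level, called between the lines, near the limit, or largest change in a list; others were named after their values were seen. Roles were assigned by hand to the 65 genes. Lists of Wnt, TGF-β, Notch, MAPK, cadherin, channel, melanin and cholesterol genes were counted too, and their counts stand in the closing section. Transcript lengths (GENCODE M21) and promoter windows (RefSeq, GRCm38.p6) were matched by gene, and no coordinate was converted between builds. Results of 1 member and 1 list are not reported here.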

Additional observations from a re-analysis of the deposited data

How the results depend on the processing

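With DESeq2, 3 members were higher and 3 lower in untreated OVA than WT cells (5 and 6 with edgeR). With IFN-γ, DESeq2 called 11 members between the lines, 3 of them higher in OVA (16 and 5 with edgeR). Fitting only the groups compared left 3 higher with IFN-γ. Without the filter on low counts 1 member, Zfp469, was called in the difference of responses, and a limit of 1/3 in place of 0.5 gave 13 members. The cause of these shifts was not tested. With each library left out in turn, 3 to 5 members were higher and 2 to 7 lower untreated, 2 to 5 higher and 8 to 11 lower with IFN-γ, and 0 in the difference of responses, both ways. The genes called with IFN-γ ran from 3022 to 4050 higher and 2817 to 3732 lower in OVA cells, and from 3014 to 3800 higher and 2305 to 3256 lower in WT cells, and the rule gave 63 to 70 members. Where 1 untreated library was left, it was assumed to vary like the other groups. Of 256 alternative values of the 16 calls with IFN-γ, 41 lost the call, as did 24 of 176 untreated, and 0 reversed. Correlations of deviations between libraries of the same replicate number ran from -0.072 to 0.035. Such values cannot show whether the libraries were paired. The fit with a replicate block called 5 members higher and 7 lower untreated, 5 and 14 with IFN-γ, and 0 and 0 in the difference of responses. It called 3853 genes higher and 3420 lower in OVA cells, and 3697 and 2978 in WT cells. Depth limits the least abundant members, which had as few as 25 counts.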

Other observations

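The lists that hold few or none of the members also moved both ways with IFN-γ (edgeR, adjusted p under 0.05). Of 22 melanin and melanosome genes, 9 rose and 8 fell in OVA cells and 11 rose and 4 fell in WT cells. Kit, a member, was among those that fell in each line. Of 24 cholesterol synthesis genes, 6 rose and 6 fell in OVA cells and 4 rose and 10 fell in WT cells. Of 36 genes of the TGF-β and BMP pathway, 5 rose and 15 fell in OVA cells and 6 rose and 16 fell in WT cells. Of 38 Wnt pathway genes, 6 rose and 17 fell in OVA cells and 8 rose and 14 fell in WT cells. Of 18 Notch pathway genes, 5 rose and 7 fell in OVA cells and 5 rose and 8 fell in WT cells. Of 29 genes of MAPK output and feedback, 8 rose in each line, and 13 fell in OVA cells and 14 in WT cells. Of 15 cadherins and protocadherins, 4 rose and 6 fell in OVA cells and 3 rose and 4 fell in WT cells, the member Celsr2 among them. Of 22 potassium and calcium channel genes, 7 rose in each line, and 5 fell in OVA cells and 4 in WT cells, the member Cacna1c among them.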
